A study of Homo sapiens with 6 samples.

Results

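MORF4L1 (also known as MRG15) encodes a chromatin protein, and its RNA level was lower in A549 cells 48 hours after transfection with a small interfering RNA (siRNA) against GSE1 than after a negative control siRNA. It is described here with 9 genes that are linked to it. They are its paralog MORF4L2, its binding protein MRFAP1, the 5 NuA4 subunits KAT5, EP400, TRRAP, BRD8 and DMAP1, and the 2 SIN3 scaffolds SIN3A and SIN3B. The 10 genes were found by symbol among 60612 genes in the deposited table, and all 10 passed the filter on low counts, as did 15937 genes in all. MORF4L1 was chosen by its measured log2 fold change, low after the knockdown, so its difference is given as a description with no test. Its 9 partners were picked for what their proteins bind or build, though with earlier results of these data known.

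A549 is an established human cell line from a lung adenocarcinoma and grows as epithelial cells. RNA was sequenced from 3 libraries of siGSE1-transfected cells and 3 libraries of control-transfected cells, and both groups went through transfection. The labels do not say whether replicates came from separate cultures, so each p-value covers the spread among 6 libraries that may be technical repeats. The sources used here give no siRNA sequence and no passage or clone of the line.

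NuA4 is a large acetyltransferase complex that adds acetyl groups to the tails of histones H2A and H4 and exchanges the histone variant H2A.Z. SIN3 complexes work in the other direction, since a SIN3 scaffold holds the histone deacetylases HDAC1 and HDAC2. MORF4L1 belongs to both kinds of complex. Its chromodomain binds methylated histone H3 in transcribed genes, and its MRG domain docks partner proteins.

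Library totals ran from 17521807 to 19914346 counts in siGSE1 cells and from 14475992 to 20755506 in control cells. GSE1, the targeted gene, had 3.84, 4.06 and 3.73 FPKM (fragments counted, scaled to exonic length and library total) in siGSE1 replicates 1, 2 and 3, against 7.37, 8.06 and 7.92 FPKM in control replicates 1, 2 and 3. The groups did not overlap, and the fitted level was 49.0% of control. Control replicate 2 stood apart. Compared gene by gene, its counts gave a chi-square of 10.1 and 8.97 per degree of freedom against control replicates 1 and 3, beside 2.49 to 3.32 among siGSE1 libraries and 4.60 for control replicates 1 and 3. Of 5 epithelial markers, 4 were abundant, led by KRT18 at 764 FPKM or more in every library, while EPCAM had at most 1.14 FPKM. Their summed level was 1514 to 1545 FPKM in siGSE1 libraries and 1565 to 2051 FPKM in control libraries. KRT8 and KRT18 were themselves called lower in siGSE1 cells, at log2 fold changes of -0.26 and -0.25 (edgeR adjusted p = 0.0173 and 0.0317). Both were highest in control replicate 2. The alveolar genes NKX2-1, SFTPB and SFTPC had at most 0.08, 0.06 and 0.04 FPKM. Markers of other cell types were under 1 FPKM in every library for 3 of 4 leukocyte, 4 of 5 fibroblast and 4 of 4 endothelial genes. The fibroblast list summed to 2.06 to 2.28 FPKM in siGSE1 libraries and 1.22 to 1.97 in control libraries, and the part of these markers in the results was not tested. Across all genes tested by edgeR's quasi-likelihood method, 1730 (10.9%) were higher and 1437 (9.02%) lower in siGSE1 cells at an adjusted p under 0.05, which is 19.9% in all. With the library sizes set to equalise summed FPKM (TPM scaling), 2544 were higher and 929 lower.

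MORF4L1 (ENSG00000185787, hg38 chromosome 15, 78810487 to 78898139, plus strand) was lower in every siGSE1 library than in every control library. It had 18.52, 17.96 and 16.57 FPKM in siGSE1 replicates 1, 2 and 3, against 33.24, 33.28 and 31.85 FPKM in control replicates 1, 2 and 3. The means were 17.7 ± 1.00 FPKM in siGSE1 cells and 32.8 ± 0.81 FPKM in control cells (SD, n = 3 each). The fitted level in siGSE1 cells was 53.0% of control, a log2 fold change of -0.92. These values rest on 2126 to 2274 counts per siGSE1 library and 3021 to 4526 per control library. Leaving out each library in turn gave log2 fold changes from -0.95 to -0.87. By its fitted value MORF4L1 stood 222nd from the lowest among 15937 tested genes. It was 5th from the lowest among the 4114 genes with at least 10 FPKM in control cells. MORF4L1 was chosen for this low value, so both ranks follow from the choice, and the 10 FPKM limit used control cells alone. In bulk libraries, a lower level in every cell and fewer cells with the transcript cannot be told apart.

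**Figure D1:**
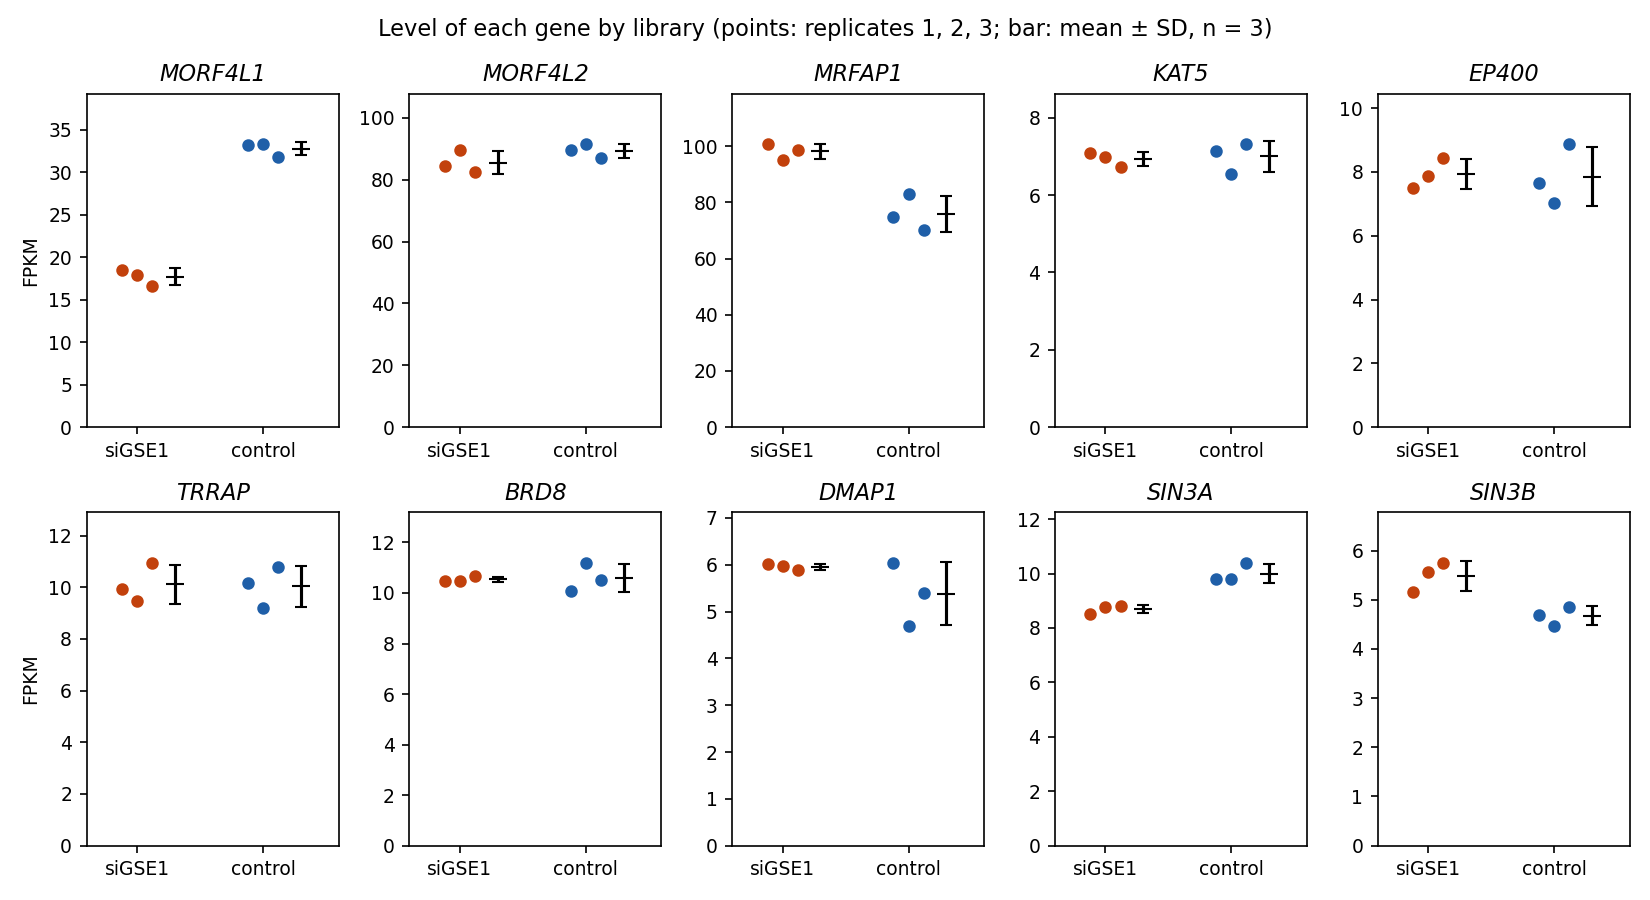
FPKM of the 10 genes in each library, in siGSE1 cells (orange, left) and control cells (blue, right), with one axis from 0 for each gene, points for replicates 1, 2 and 3, and bars for the mean ± SD. MORF4L1 lies at 16.57 to 18.52 FPKM in siGSE1 libraries and 31.85 to 33.28 in control libraries, while the panels of KAT5, EP400, TRRAP and BRD8 show groups that overlap.

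The gene has a near-identical copy elsewhere in the genome that also received reads. MORF4L1P1 (ENSG00000218283, hg38 chromosome 1, 220253570 to 220254536, plus strand) is an annotated processed pseudogene, a copy of a spliced transcript put back into the genome. In GENCODE release 29 its 967 bases align to the 972-base coding sequence of a MORF4L1 transcript with 7 differences and no gap. They are 99.3% identical. The coding sequence of MORF4L2 is 82.8% identical to that of MORF4L1 over 806 aligned bases. The last 150 coding bases of MORF4L1, which end in the stop codon and lie in exons between chr15:78894840-78897067 of hg38, are shown with the aligned bases of MORF4L1P1 (chr1:220254392-220254536, plus strand) and of MORF4L2 (chrX:103676161-103676310, minus strand). They show how little of the sequence tells the first pair apart. Capitals mark bases that differ from MORF4L1, 2 in the copy, which stops 5 bases earlier, and 31 in the paralog.
MORF4L1: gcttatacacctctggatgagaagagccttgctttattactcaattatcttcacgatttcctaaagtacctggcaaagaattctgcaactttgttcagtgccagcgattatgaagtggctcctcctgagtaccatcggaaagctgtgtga
MORF4L1P1: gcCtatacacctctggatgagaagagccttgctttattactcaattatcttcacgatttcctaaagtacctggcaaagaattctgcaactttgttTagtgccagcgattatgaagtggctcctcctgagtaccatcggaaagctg
MORF4L2: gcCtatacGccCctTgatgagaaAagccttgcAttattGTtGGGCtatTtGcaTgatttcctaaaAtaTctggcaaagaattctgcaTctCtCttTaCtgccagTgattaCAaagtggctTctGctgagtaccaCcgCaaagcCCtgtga

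The series text gives reads of 50 bases. Of the 918 windows of 50 bases along MORF4L1P1, 610 match the MORF4L1 coding sequence exactly and the other 308 differ from it at 1 base. Where the 2 align, a read from this MORF4L1 coding sequence and one from MORF4L1P1 are therefore identical or nearly so. The 2 rows are thus uncertain as separate measurements. MORF4L1 and MORF4L2 shared no such window. The reverse share is smaller, because 8.75% of all distinct 50-base windows in MORF4L1 transcripts occur in MORF4L1P1. The longest MORF4L1 coding sequence, of 1089 bases, has an inner 117 bases that the copy lacks. Of 1035 windows along its alignment to the copy, 872 (84.3%) differ at up to 2 bases.

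The MORF4L1P1 row had 1124, 1249 and 1312 counts in siGSE1 replicates 1, 2 and 3, against 2343, 2226 and 1579 counts in control replicates 1, 2 and 3. Scaled to library totals, that is 64.9 ± 0.90 CPM (counts scaled to the library total) in siGSE1 cells and 110 ± 3.58 in control cells (SD, n = 3 each), with no overlap. Its log2 fold change was -0.79, given without a test since its reads cannot be fully separated from those of MORF4L1. The copy took 34.6%, 35.5% and 37.8% of the summed counts of the 2 rows in siGSE1 replicates 1, 2 and 3. It took 34.4%, 33.0% and 34.3% in control replicates 1, 2 and 3. Both rows were thus lower together, and their sum was 181 ± 5.68 CPM in siGSE1 cells and 325 ± 7.09 in control cells (SD, n = 3 each). With the rows added before the fit, a choice made after the data were seen, the log2 fold change of MORF4L1 was -0.87. Of 8 rows of MORF4-family copies and relatives, 6 had no count in any library, and MORF4L1P1 was the only one with over 10 counts in a library.

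**Figure D2:**
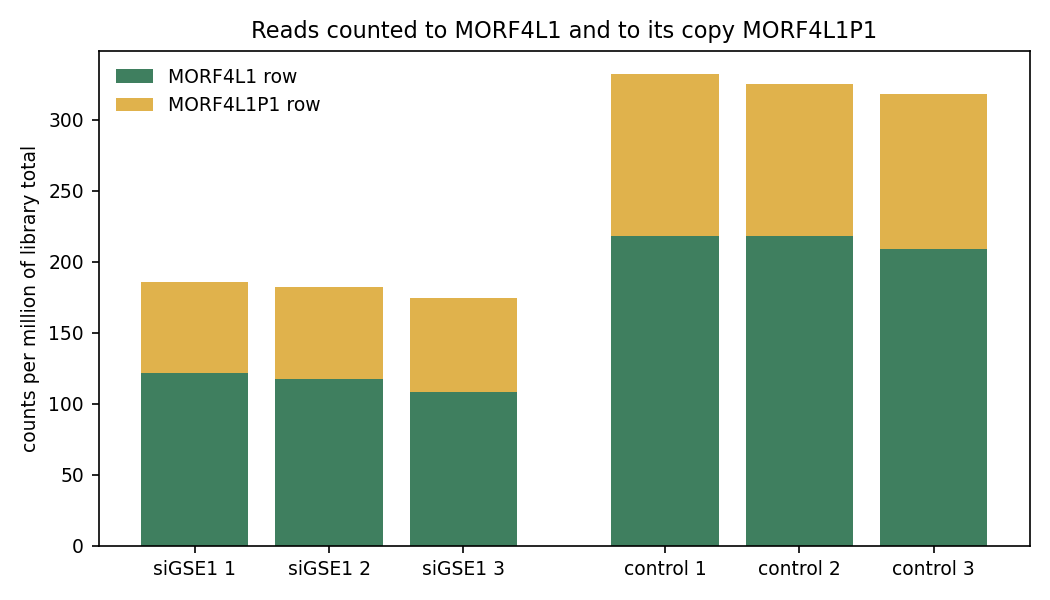
CPM for the MORF4L1 row (green) and the MORF4L1P1 row (yellow), stacked, in siGSE1 libraries (left) and control libraries (right). Sums lie between 174 and 185 in siGSE1 libraries and between 318 and 332 in control libraries, and the copy holds a like share of each bar.

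MORF4L2 (ENSG00000123562, chromosome X, 103675496 to 103688158, minus strand) carries an MRG domain like that of MORF4L1, lacks the chromodomain, and also enters NuA4. It had 84.31, 89.78 and 82.57 FPKM in siGSE1 replicates 1, 2 and 3, against 89.49, 91.45 and 86.95 FPKM in control replicates 1, 2 and 3. The groups overlapped, with siGSE1 replicate 2 inside the control range. Its log2 fold change was -0.09 (SE 0.05, edgeR adjusted p = 0.273), with a 95% interval of -0.20 to 0.02. The ratio of MORF4L1 to MORF4L2 in FPKM was 0.207 ± 0.011 in siGSE1 cells and 0.367 ± 0.0038 in control cells (SD, n = 3 each). The antisense gene MORF4L2-AS1 overlaps MORF4L2 and had at most 20 counts in a library. The ratio compares levels per exonic length and inherits the choice of MORF4L1.

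MRFAP1 (ENSG00000179010, chromosome 4, 6640091 to 6642745, plus strand) encodes a small nuclear protein that binds MORF4L1. It rose 1.27-fold in siGSE1 cells. It had 100.64, 95.24 and 98.58 FPKM in siGSE1 replicates 1, 2 and 3, against 74.85, 82.84 and 70.09 FPKM in control replicates 1, 2 and 3. Every siGSE1 library lay above every control library, and control replicate 2 was the highest of its group. The log2 fold change was 0.34 (SE 0.06, edgeR adjusted p = 9.76e-04), and it was called under all 16 alternatives, at values from 0.27 to 0.41. Without control replicate 2 it was 0.41. No 50-base window of its transcripts occurred in another gene. Its relative MRFAP1L1 had 14.9 ± 0.37 FPKM in siGSE1 cells and 15.0 ± 1.04 FPKM in control cells (SD, n = 3 each) and did not pass the threshold (log2 fold change -0.03, adjusted p = 0.830). In siGSE1 cells MRFAP1 was the most abundant of the 10 genes per length and MORF4L2 the next, and in control cells the order of the pair was the other way round, with no overlap of libraries in either group.

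**Figure D3:**
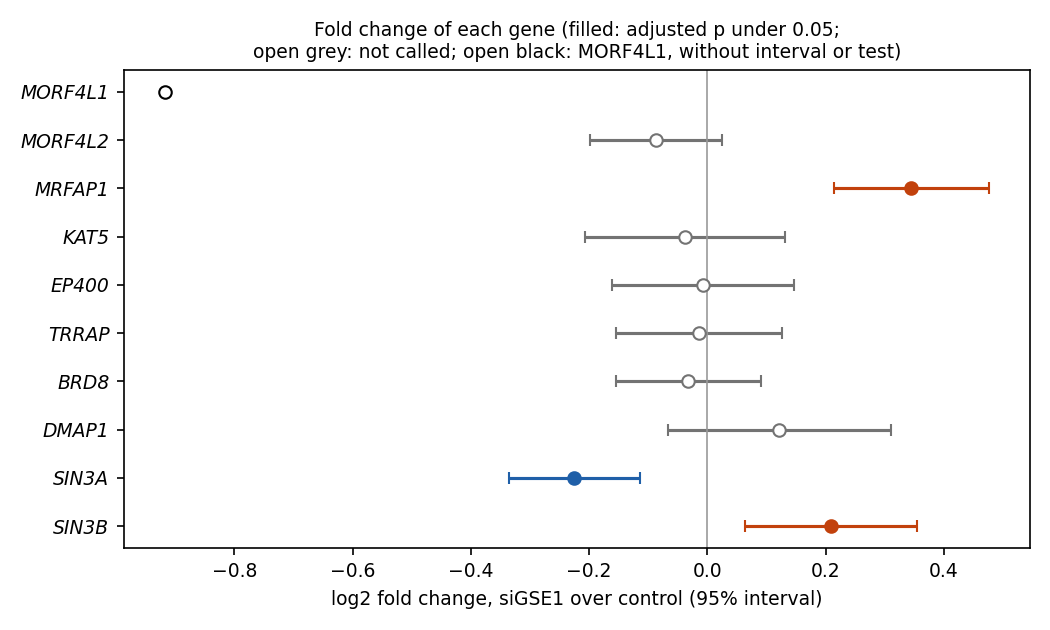
Log2 fold change of siGSE1 over control for the 10 genes, with 95% intervals from the fit over all genes for the 9 partners. MRFAP1 and SIN3B (filled orange) were called higher and SIN3A (filled blue) lower, the 6 open grey points were not called, and MORF4L1 (open black) is shown without interval or test.

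Of the 9 partners, 2 were called higher and 1 lower, or 33.3%, against 19.9% of all tested genes, and 6 were not called. The 9 were picked with earlier results of these data known, so this share and their tests are not free of that choice. The higher count was 1 in place of 2 under 9 of 16 alternatives, among them 5 of the 6 that left out a library. The 3 were MRFAP1, SIN3B and SIN3A, and 0 of the 5 NuA4 subunits among the 10 genes passed the threshold. The median log2 fold change of the partners was -0.01, beside 0.00 over all tested genes. The FPKM of the groups did not overlap for 3 of the 9 partners, and did not overlap for 36.1% of all tested genes.

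The catalytic subunit of NuA4 is KAT5 (also known as TIP60; ENSG00000172977, chromosome 11, 65711996 to 65719604, plus strand), which transfers the acetyl group. It had 7.08, 6.99 and 6.73 FPKM in siGSE1 replicates 1, 2 and 3, against 7.15, 6.55 and 7.31 FPKM in control replicates 1, 2 and 3. The siGSE1 values all lay within the control range, and the log2 fold change was -0.04 (SE 0.08, edgeR adjusted p = 0.790), with a 95% interval of -0.21 to 0.13. KAT5 overlaps RNASEH2C, a subunit of ribonuclease H2 on the other strand, and 30.1% of the 50-base windows of KAT5 transcripts lie on the opposite strand of RNASEH2C transcripts. The sources used here do not say whether counting used strand, so reads of the shared stretch cannot be assigned. RNASEH2C rose, by 0.27 on the log2 scale (SE 0.07; adjusted p = 0.0114 by edgeR).

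EP400 (ENSG00000183495, chromosome 12, 131949942 to 132080460, plus strand) is the ATPase of the complex, which handles H2A.Z exchange. It had 7.48, 7.87 and 8.44 FPKM in siGSE1 replicates 1, 2 and 3, against 7.66, 7.03 and 8.86 FPKM in control replicates 1, 2 and 3. The control range contained all siGSE1 values, and the log2 fold change of -0.01 had a 95% interval of -0.16 to 0.15 (edgeR adjusted p = 0.963). Its pseudogene EP400P1, which holds 4.21% of the 50-base windows of EP400 transcripts, had 0.72 ± 0.10 FPKM in siGSE1 cells and 0.78 ± 0.11 FPKM in control cells (SD, n = 3 each).

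TRRAP (ENSG00000196367, chromosome 7, 98877933 to 99050831, plus strand) is a very large scaffold that transcription factors contact, and NuA4 shares it with the SAGA complex. It had 9.92, 9.47 and 10.94 FPKM in siGSE1 replicates 1, 2 and 3, against 10.15, 9.20 and 10.78 FPKM in control replicates 1, 2 and 3. The groups covered nearly the same range, with a log2 fold change of -0.01 and a 95% interval of -0.15 to 0.13 (edgeR adjusted p = 0.915). BRD8 (ENSG00000112983, chromosome 5, 138139770 to 138178953, minus strand) is a subunit with bromodomains, which bind acetylated lysines. KIF20A, a mitotic kinesin that overlaps it by 235 bases on the other strand, was called higher (log2 fold change 0.24, edgeR adjusted p = 0.0345), and SMURF1, which overlaps TRRAP on the other strand, was not (log2 fold change -0.01, adjusted p = 0.952). BRD8 had 10.49, 10.49 and 10.66 FPKM in siGSE1 replicates 1, 2 and 3, against 10.09, 11.19 and 10.52 FPKM in control replicates 1, 2 and 3. All siGSE1 values lay inside the control range, and the log2 fold change was -0.03, with a 95% interval of -0.16 to 0.09 (edgeR adjusted p = 0.752).

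DMAP1 (ENSG00000178028, chromosome 1, 44213455 to 44220681, plus strand), a subunit named for its binding to DNA methyltransferase DNMT1, varied most of the 10 genes among the control libraries, relative to its mean. It had 6.01, 5.98 and 5.88 FPKM in siGSE1 replicates 1, 2 and 3, against 6.04, 4.70 and 5.40 FPKM in control replicates 1, 2 and 3. Control replicate 2 was the lowest and control replicate 1 the highest of all 6 libraries, so the groups overlapped. The log2 fold change was 0.12 (SE 0.09, edgeR adjusted p = 0.378), with a 95% interval of -0.07 to 0.31, and 0.03 without control replicate 2. The direction of KAT5, EP400, TRRAP and BRD8 turned under at least 1 alternative scaling or left-out library, with every value between -0.09 and 0.07.

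The SIN3 scaffolds, which each hold HDAC1 or HDAC2 in a separate complex, were called in opposite directions, SIN3B only narrowly. SIN3A (ENSG00000169375, chromosome 15, 75369379 to 75455842, minus strand) fell to 85.6% of control in siGSE1 cells. It had 8.52, 8.77 and 8.79 FPKM in siGSE1 replicates 1, 2 and 3, against 9.81, 9.80 and 10.39 FPKM in control replicates 1, 2 and 3. The groups did not overlap, and the log2 fold change was -0.22 (SE 0.05, edgeR adjusted p = 0.00610). It was called under all 16 alternatives, at values from -0.24 to -0.16. Its adjusted p came close to the threshold in some of them, reaching 0.0427 by edgeR without siGSE1 replicate 1.

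SIN3B (ENSG00000127511, chromosome 19, 16829400 to 16880353, plus strand) had 5.15, 5.56 and 5.75 FPKM in siGSE1 replicates 1, 2 and 3, against 4.69, 4.47 and 4.86 FPKM in control replicates 1, 2 and 3. It rose by 0.21 on the log2 scale (SE 0.07, edgeR adjusted p = 0.0417), with no overlap of the groups. This call was close to the threshold. It was lost in 9 of 16 alternatives, among them 5 of the 6 that left out a library, with an adjusted p of 0.0895 without control replicate 2, 0.0945 by DESeq2 and 0.0556 with the replicate number as a block. Its log2 fold change stayed between 0.17 and 0.27 throughout.

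The ratio of SIN3A to SIN3B in FPKM was 1.65, 1.58 and 1.53 in siGSE1 replicates 1, 2 and 3, against 2.09, 2.19 and 2.14 in control replicates 1, 2 and 3. Each library gives its own ratio, so depth cancels, and the siGSE1 ratios lay below every control ratio. The means were 1.59 ± 0.06 in siGSE1 cells and 2.14 ± 0.05 in control cells (SD, n = 3 each). An exact two-sided permutation test on the log2 ratio gave p = 0.1, the smallest that 3 libraries against 3 allow. SIN3A lay lower and SIN3B higher in every siGSE1 library than in every control library, so the ratios had to separate. That p was therefore fixed in advance and adds nothing to the separation of each gene.

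By level per exonic length, in the order of the siGSE1 means, the genes were MRFAP1, MORF4L2, MORF4L1, BRD8, TRRAP, SIN3A, EP400, KAT5, DMAP1 and SIN3B. In siGSE1 cells only the neighbours BRD8 and TRRAP had overlapping libraries. In control cells BRD8 and TRRAP, TRRAP and SIN3A, EP400 and KAT5, and DMAP1 and SIN3B overlapped. MORF4L1 held the third place in both groups.

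Of 12 other NuA4 subunits tested, 2 rose, 1 fell and 9 did not pass, or 25.0% called against 19.9% of all genes, with a median log2 fold change of 0.07. YEATS4, the YEATS-domain reader of acetylated histones, had 10.38, 11.74 and 10.49 FPKM in siGSE1 replicates 1, 2 and 3, against 8.04, 8.03 and 7.14 FPKM in control replicates 1, 2 and 3. It rose with no overlap of the groups, by 0.46 on the log2 scale (SE 0.10, edgeR adjusted p = 0.00417). RUVBL1, one of the paired ATPases that NuA4 shares with other remodelers, had 13.67, 13.46 and 13.84 FPKM in siGSE1 replicates 1, 2 and 3, against 17.89, 16.26 and 16.85 FPKM in control replicates 1, 2 and 3. It fell, also without overlap, and its log2 fold change was -0.34 (SE 0.06, edgeR adjusted p = 5.24e-04). The other ATPase of the pair, RUVBL2, had 55.1 ± 0.94 FPKM in siGSE1 cells and 55.6 ± 2.27 FPKM in control cells (SD, n = 3 each). RUVBL2 did not pass (log2 fold change -0.04, edgeR adjusted p = 0.677), and its groups overlapped. ACTB, the actin that NuA4 holds as a monomer and that also builds the cytoskeleton, had 1202 ± 34.3 FPKM in siGSE1 cells and 919 ± 55.8 FPKM in control cells (SD, n = 3 each). It rose by 0.36 on the log2 scale (edgeR adjusted p = 1.72e-04). MRGBP, which ties MORF4L1 to NuA4, had 11.76, 11.90 and 12.23 FPKM in siGSE1 replicates 1, 2 and 3, against 13.24, 12.17 and 11.72 FPKM in control replicates 1, 2 and 3, and with overlapping groups did not pass (log2 fold change -0.08, adjusted p = 0.526).

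Of 19 other SIN3 subunits, 1 rose, 1 fell and 17 did not pass, or 10.5% called against 19.9% of all genes, with a median of -0.03. PHF12, the subunit that joins MORF4L1 to SIN3B, had 6.39, 6.48 and 6.48 FPKM in siGSE1 replicates 1, 2 and 3, against 4.62, 4.94 and 4.97 FPKM in control replicates 1, 2 and 3. It rose without overlap, by 0.39 on the log2 scale (SE 0.06, edgeR adjusted p = 1.57e-04). SAP18, a subunit also found in RNA processing complexes, had 17.34, 18.54 and 16.83 FPKM in siGSE1 replicates 1, 2 and 3, against 21.30, 23.82 and 20.63 FPKM in control replicates 1, 2 and 3. It fell, and its log2 fold change was -0.35 (SE 0.07, edgeR adjusted p = 0.00183), and control replicate 2 was the highest library. The deacetylase genes did not pass the threshold, although the groups of HDAC1 did not overlap. The groups did not overlap for 9 of the 19 subunits, and for 36.1% of all tested genes. HDAC1 had 25.2 ± 0.26 FPKM in siGSE1 cells and 22.9 ± 1.62 FPKM in control cells (SD, n = 3 each; log2 fold change 0.11, adjusted p = 0.230). HDAC2 had 5.39 ± 0.37 FPKM in siGSE1 cells and 5.51 ± 0.14 FPKM in control cells (SD, n = 3 each; log2 fold change -0.06, adjusted p = 0.568).

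**Figure D4:**
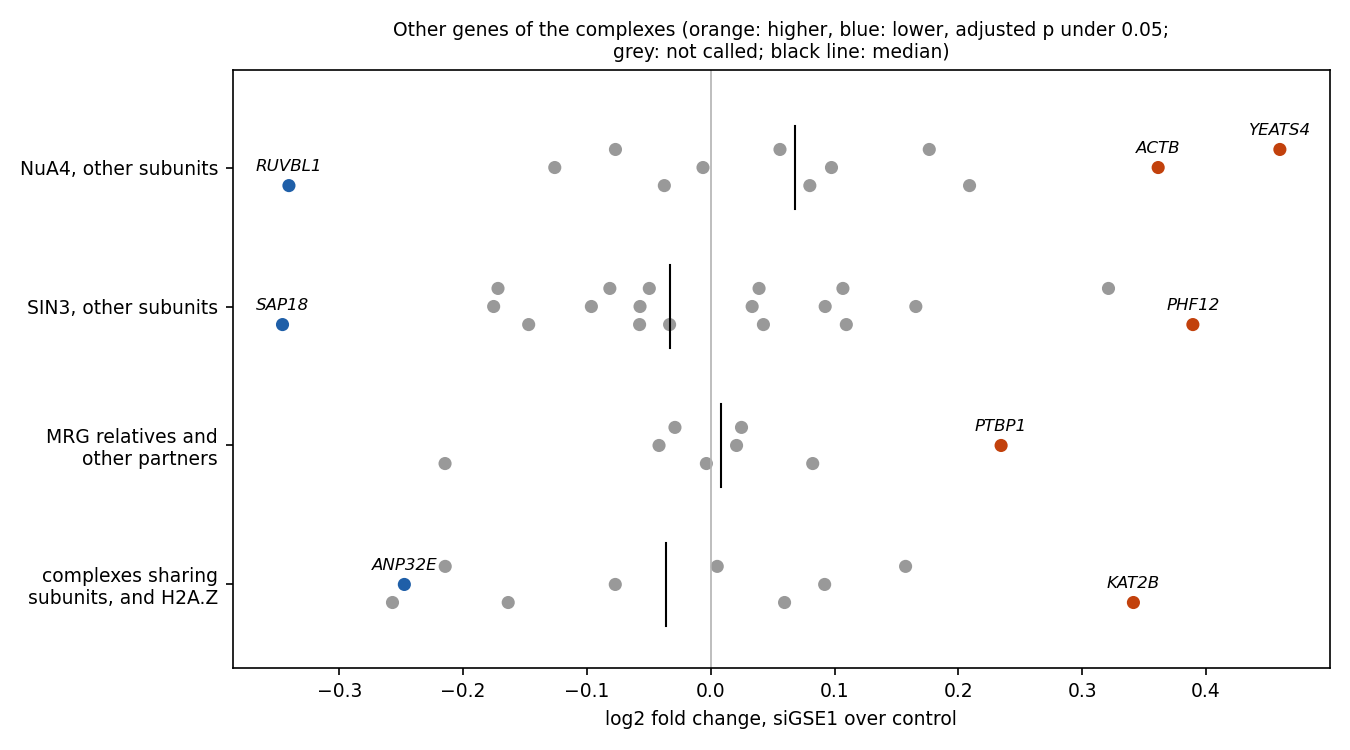
Log2 fold change of siGSE1 over control for the other genes of the NuA4 and SIN3 complexes, for relatives and other partners of MORF4L1, and for complexes that share NuA4 subunits, with 1 point per gene and a black line at each median. Called genes are named, from SAP18 at -0.35 to YEATS4 at 0.46, and most points are grey, that is not called.

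Relatives and other partners of MORF4L1 showed 1 higher, 0 lower and 7 not called of 8, or 12.5% called against 19.9% of all genes, with a median of 0.01. The 1 was PTBP1, a splicing regulator that MORF4L1 recruits to methylated chromatin, with 51.33, 52.27 and 51.88 FPKM in siGSE1 replicates 1, 2 and 3, against 42.19, 44.11 and 43.64 FPKM in control replicates 1, 2 and 3. It rose by 0.23 on the log2 scale (SE 0.05, edgeR adjusted p = 0.00239), with groups that did not overlap. KDM5B, a histone demethylase found with MORF4L1, had 2.60 ± 0.12 FPKM in siGSE1 cells and 2.98 ± 0.37 FPKM in control cells (SD, n = 3 each) and did not pass (log2 fold change -0.21, adjusted p = 0.0644). It was named after its values were seen, because the count of lower genes in this list became 1 with no low-count filter, with the replicate block and without control replicate 2. The remaining 6 were MSL3, MRFAP1L1, ASH1L, PALB2, BRCA2 and RB1.

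Of 10 genes of complexes that share NuA4 subunits, or of H2A.Z and its chaperones, 1 rose, 1 fell and 8 did not pass, or 20.0% called against 19.9% of all genes, with a median of -0.04. KAT2B, an acetyltransferase of SAGA-type complexes, had 4.69, 4.77 and 4.46 FPKM in siGSE1 replicates 1, 2 and 3, against 3.42, 3.58 and 3.82 FPKM in control replicates 1, 2 and 3. It rose without overlap, by 0.34 on the log2 scale (SE 0.08, edgeR adjusted p = 0.00966). ANP32E, the chaperone that takes H2A.Z off chromatin, had 17.46, 20.78 and 15.41 FPKM in siGSE1 replicates 1, 2 and 3, against 20.00, 21.78 and 20.79 FPKM in control replicates 1, 2 and 3. It was called lower, at -0.25 on the log2 scale (SE 0.08; adjusted p = 0.0484 by edgeR), although siGSE1 replicate 2 lay inside the control range. The call was lost in 8 of 16 alternatives, among them 4 that left out a library, with the adjusted p reaching 0.253. Of the H2A.Z genes, H2AZ1 had 114 ± 3.30 FPKM in siGSE1 cells and 107 ± 3.44 FPKM in control cells (SD, n = 3 each). Its groups did not overlap, yet it was not called (log2 fold change 0.06, edgeR adjusted p = 0.475).

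The deposited gene ontology terms gave a second, overlapping roster of the complexes, in which the MORF4L1P1 row carries the terms too. Most of its tested rows were already in the NuA4 and SIN3 lists above. The called rows below, ACTB, YEATS4, RUVBL1 and PHF12, were all counted there, so these shares are no separate evidence. Apart from the 10 genes and MORF4L1P1, 11 rows with a NuA4 term were tested, of which 2 were called higher, 1 lower and 8 not, or 27.3% called against 19.9% of all genes. Of 11 such rows with the SIN3 term, 1 was called higher, 0 lower and 10 not, or 9.09% called.

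The genes whose levels across the 6 libraries lay closest to those of MORF4L1 were ATP6V1A, GNE, SENP3, ARPC5 and CDC37L1. Likeness was the root mean square difference of log2 CPM, each gene centred on its own mean, among 6933 tested genes with at least 5 FPKM on average. It was 0.02 for ATP6V1A, a subunit of the vacuolar proton pump, 0.04 for GNE, which starts sialic acid synthesis, and 0.06 for SENP3, a SUMO protease. ARPC5, a subunit of the actin-branching ARP2/3 complex, had 0.06 and CDC37L1, a relative of an HSP90 cochaperone, had 0.08. GSE1 came next, in place 6, at 0.09, and MORF4L1P1 was in place 10. Log2 fold changes of the 5 genes ran from -0.97 for CDC37L1 to -0.86 for ARPC5. ATP6V1A had 7.09, 6.72 and 6.36 FPKM in siGSE1 replicates 1, 2 and 3, against 12.48, 12.85 and 11.92 FPKM in control replicates 1, 2 and 3. Like MORF4L1, it was lowest in siGSE1 replicate 3 and, among controls, in control replicate 3. ATP6V1A was picked for its likeness library by library, so this shared order follows from the choice. Since MORF4L1 was chosen for its group difference, this ranking mostly sorts genes by that same difference, and nothing is tested by it. Of the partners, SIN3A was nearest, in place 773, and MRFAP1 farthest, in place 6418.

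**Figure D5:**
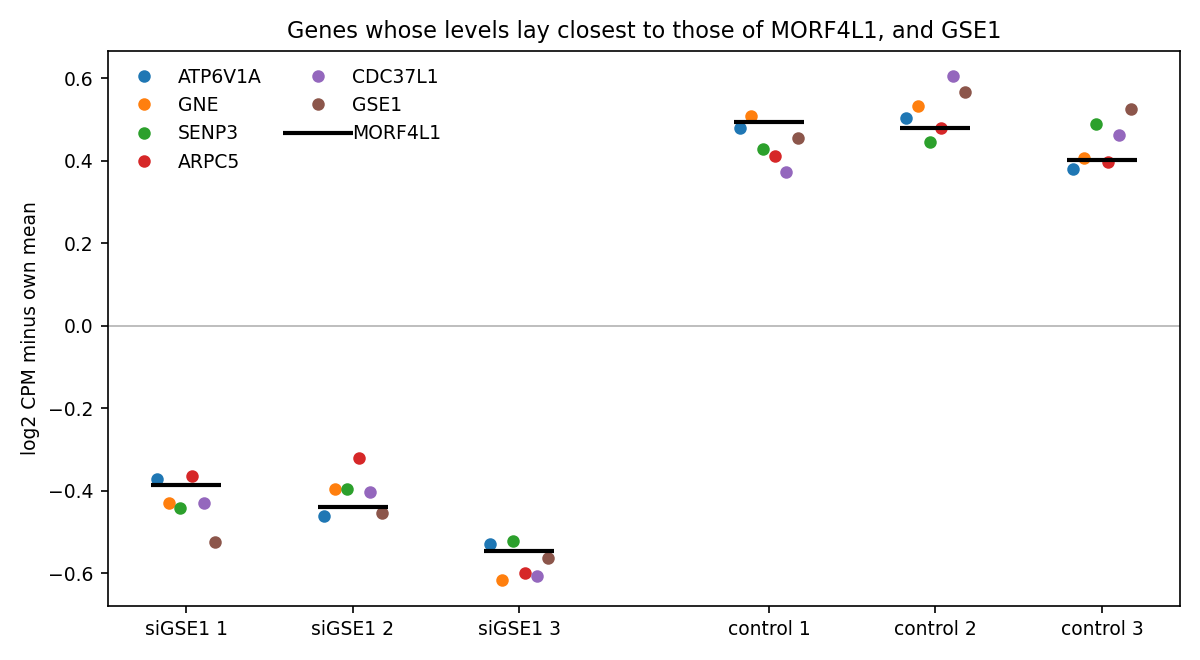
Log2 CPM minus each gene's own mean over the 6 libraries, for MORF4L1 (black bars), the 5 genes closest to it and GSE1 (points), in siGSE1 libraries (left) and control libraries (right). All 7 genes lie below 0 in the siGSE1 libraries and above 0 in the control libraries.

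Of 20 tested genes within 1 Mb of MORF4L1 on chromosome 15, 1 was called higher, 2 lower and 17 not, or 15.0% called against 19.9% of all genes, with a median log2 fold change of 0.05. The higher one was MINAR1 (log2 fold change 0.71, edgeR adjusted p = 0.0256), at 0.60 ± 0.08 FPKM in siGSE1 cells and 0.37 ± 0.02 FPKM in control cells (SD, n = 3 each). The lower pair, which like MINAR1 were named after their values were seen, were the iron regulator IREB2 (log2 fold change -0.25, edgeR adjusted p = 0.00513) and the proteasome subunit PSMA4 (log2 fold change -0.18, edgeR adjusted p = 0.0296). The neighbours next to it were ADAMTS7, which overlaps the deposited span of MORF4L1 by 978 bases on the other strand (log2 fold change -0.08, adjusted p = 0.765), and CTSH (log2 fold change 0.00, adjusted p = 0.986).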

How the data were processed

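Libraries were made from 500 ng of total RNA with a TruSeq kit, per the labels' protocols. The authors deposited raw read counts and FPKM of every library for 60612 genes, and each deposited FPKM value equals count over exonic length and library total within 0.0051. Per the submitters' processing notes, HISAT2, StringTie 1.3.3b, HTSeq and edgeR were among the tools, on hg38, whereas the series text names STAR and DESeq2. The sources used here give no rule for reads that match several places.

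Counts were tested in R 4.3.3 with edgeR 4.0.16 (TMM, filterByExpr with a minimum count of 10 and total of 15, quasi-likelihood test, group alone), and Benjamini-Hochberg adjustment ran over all 15937 genes tested. Standard errors are the absolute log2 fold change over the square root of F. The fit was tested on simulated data. DESeq2 1.42.0 and limma 3.58.1 served as alternatives, beside other scalings, filters, pseudocounts of 1 and 0.1 on FPKM, a replicate block and leaving out each library. Shared windows of 50 bases were searched on both strands of GENCODE release 29 transcripts, and coding sequences were aligned with Biopython 1.88.

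The members and lists were chosen with earlier results of these data known. Named genes were the 10 members, GSE1, up to 4 called genes per list with the smallest adjusted p (or the 2 most abundant), and the 5 genes most like MORF4L1. Other genes were named outside that rule, among them cell type markers, genes that overlap a member, MRGBP, HDAC1, HDAC2, H2AZ1, MRFAP1L1 and CTSH. Several of these are given with test results. KDM5B, MINAR1, IREB2 and PSMA4 were named after their values were seen. The biological coefficient of variation was 7.00%, and counting error of a member in 1 library was at most 5.03%.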

Additional observations from a re-analysis of the deposited data

How the results depend on the processing

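MORF4L1 kept its direction under all 16 alternatives, 15 of them planned. MRFAP1 and SIN3A kept their direction and their call under all 16, and MORF4L2 and DMAP1 stayed uncalled with the same direction. The unplanned alternative added the MORF4L1P1 counts to MORF4L1 and left the counts of every partner as they were. It is therefore no check on a partner. The log2 fold change of SIN3B was 0.20 (adjusted p = 0.0945) by DESeq2, 0.19 and 0.23 by limma on FPKM with pseudocounts of 1 and 0.1, and 0.21 with the replicate block, none of them past the threshold, and 0.17 to 0.25 with a library left out. The partners called higher then numbered 1, and 1 to 2 with a library left out. The cause was not tested.

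Values near 0 changed sign. With TPM scaling KAT5 was at 0.025, EP400 at 0.054, TRRAP at 0.048 and BRD8 at 0.030. With no TMM EP400 was at 0.017 and TRRAP at 0.010. By limma on FPKM with pseudocounts of 1 and 0.1, EP400 was at 0.017 and 0.019 and TRRAP at 0.0090 and 0.0099. EP400 was at 0.0016 by limma-voom and with no low-count filter. With a library left out EP400 ran from -0.080 to 0.068, TRRAP from -0.076 to 0.034 and BRD8 from -0.060 to 0.0094.

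Counts of called genes moved as follows. Other SIN3 subunits had 3 higher with TPM scaling and 2 by limma on either FPKM scale. Relatives and partners of MORF4L1 had 1 lower with no low-count filter and with the replicate block, and 0 to 1 with a library left out. Complexes that share NuA4 subunits had 2 higher and 0 lower with no TMM, with TPM scaling and by limma on either FPKM scale, and 1 to 2 higher and 0 to 2 lower with a library left out. Counting the MORF4L1P1 row, rows with the SIN3 term had 2 higher with TPM scaling and 2 lower with RLE size factors. With the MORF4L1P1 counts added to MORF4L1, rows with the SIN3 term had 0 lower and rows with the NuA4 term had 1 lower. That setting has no separate MORF4L1P1 row, so these drops follow from its removal. Over all genes, 929 were lower with TPM scaling and 887 and 909 by limma on FPKM with pseudocounts of 1 and 0.1. With a library left out, 1049 to 1914 were higher and 814 to 1648 lower, the lowest counts without siGSE1 replicate 3, and 897 were lower without siGSE1 replicate 2.

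The replicate numbers showed no sign of pairing, since same-numbered deviations from the group means had correlations from -0.02 to 0.02. With 3 libraries per group this cannot exclude pairing. With the number as a block, 1715 genes were higher and 1382 lower, and SIN3B lost its call.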
